A study of Mus musculus with 2 samples.

Results

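Translation initiation and elongation factors are the proteins that place the ribosome on an mRNA and move it along the message. Their genes were chosen by symbol, as protein-coding genes of the mouse autosomes whose name begins with Eif or Eef followed by a number, and 68 of the 20661 autosomal protein-coding genes met this rule. The data were 1 chromatin immunoprecipitation sequencing (ChIP-seq) library made with a Myc-Tag antibody from a Lck-Dlx5 T-cell lymphoma, and 1 input library of the same kind of lymphoma. The lymphoma arose in mice carrying a Myc-Tag-Dlx5 transgene, expressed in thymocytes under the Lck promoter, and Dlx5 is a homeobox transcription factor known from bone and forebrain development. The labels give the strain as C57BL/6 for the ChIP and C57BL/7 for the input, with primary tumor as the passage of both, whereas the methods name 1 lymphoma cell line and an IgG control. The age of the mice is not given in the sources used here. Neither library was replicated, so no difference below has a replicate check and no p-value was computed. Each called interval carries a summit, the position of its maximum, and a height, given in whole numbers with no normalization named. The Myc-Tag library had 3477 intervals with heights from 9 to 301 and a median of 16, and 28 of them were also called in the input. The depth behind a height is unknown, since no read totals were used here.

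In initiation, eIF2 delivers the initiator tRNA, eIF2B reloads eIF2 with GTP, eIF3 organizes the small ribosomal subunit, and the eIF4 factors recognize and unwind the capped end of the mRNA. The eIF2 kinases shut down initiation under stress, and the eIF4E binding proteins keep the cap-binding factor from its partners. In elongation, eEF1A brings each aminoacyl-tRNA to the ribosome, its exchange factors reload it, and eEF2 moves the ribosome by a codon. Many of these genes are expressed in nearly all cells, though some, such as Eef1a2, are not. Growing lymphoid cells need much of the products of the widely expressed ones.

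A summit within 1 kb of a gene end was found at 22 of the 68 genes (32.4%, 95% Wilson interval 22.4 to 44.2%). Over all autosomal protein-coding genes, the same rule found 2345 of 20661 (11.3%). Wilson intervals cover counting error only. The 22 genes had 23 intervals on 13 chromosomes, because Eif4g2 had a pair of them, and 46 genes had none. The eIF3 subunits and the eEF1 subunits held 11 of the 22 genes. None of the 7 genes grouped under start selection and subunit joining had an interval, nor had the 4 genes of eIF4E binding proteins. The Wilson intervals of these small groups reached up to 35.4% and 49.0%, so they held the 11.3% of all genes. Heights ran from 11 to 32 with a median of 18, against a median of 16 over the 2024 autosomal summits within 1 kb of a coding gene end. Between the lower and upper quartiles these heights spanned 13 to 19.5 at the translation factor genes and 13 to 19 at all such summits, so the heights of the members largely overlapped those of other genes. The input had no interval at any of these 23, but of all 3360 Myc-Tag intervals up to a height of 32 only 4 were.

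**Figure D1:**
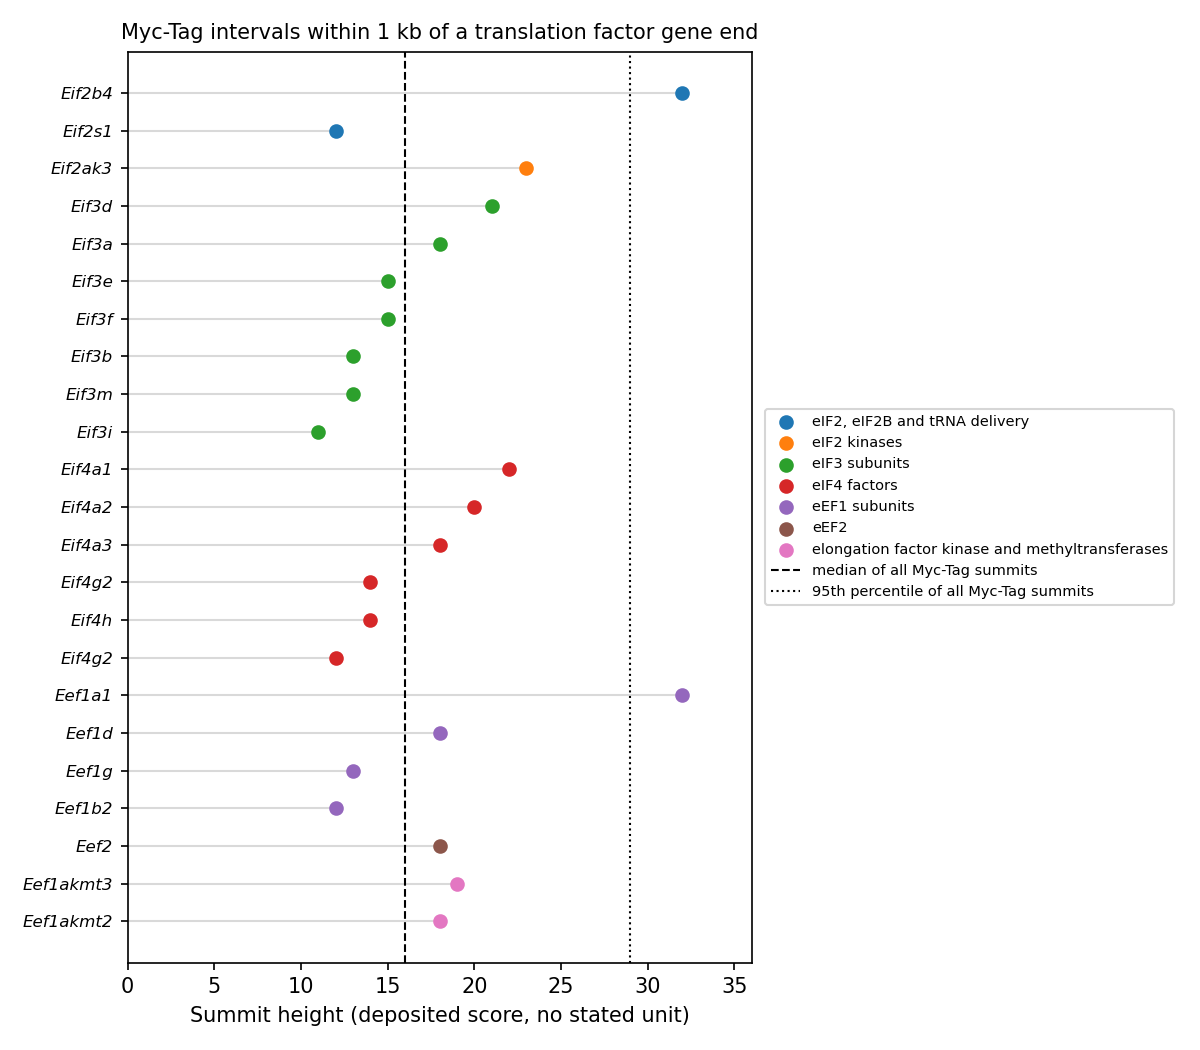
Summit height (horizontal axis, deposited score without a stated unit) of each of the 23 Myc-Tag intervals within 1 kb of a translation factor gene end, 1 row per interval and 1 colour per role. The dashed line marks the median of all Myc-Tag summits, 16, the dotted line their 95th percentile, 29, and only Eif2b4 and Eef1a1, both at 32, lie beyond the dotted line.

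The 250 bases before the annotated start are shown for 6 of the genes, as given in the RefSeq table for GRCm38.p6 and read along the gene. Eif2b4 and Eef1a1 carried the tallest summits and Eif2ak3 the next. Among the genes with an interval and a known start, only Eif2b4, Eif3b and Eif3f held the TAATT word of the Dlx family. Eif4h held both an E-box and an NRF1 word. Capitals mark, on either strand, every Dlx family word TAATT, Ets word CCGGAAG, E-box word CACGTG, the box word CCAAT, YY1 word AAGATGGCG and NRF1 word CGCATGCG.
Eif2b4, chr5:31193140-31193389, minus strand: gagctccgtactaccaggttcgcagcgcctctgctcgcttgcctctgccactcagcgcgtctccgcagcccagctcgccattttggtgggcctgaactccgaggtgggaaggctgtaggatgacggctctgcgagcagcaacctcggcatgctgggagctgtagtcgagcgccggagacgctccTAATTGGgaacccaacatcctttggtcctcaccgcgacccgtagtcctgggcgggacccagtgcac
Eef1a1, chr9:78481725-78481974, minus strand: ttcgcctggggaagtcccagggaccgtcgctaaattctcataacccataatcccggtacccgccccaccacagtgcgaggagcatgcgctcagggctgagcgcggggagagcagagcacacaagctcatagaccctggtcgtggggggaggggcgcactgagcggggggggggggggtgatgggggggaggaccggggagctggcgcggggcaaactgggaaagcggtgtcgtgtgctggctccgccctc
Eif2ak3, chr6:70844265-70844514, plus strand: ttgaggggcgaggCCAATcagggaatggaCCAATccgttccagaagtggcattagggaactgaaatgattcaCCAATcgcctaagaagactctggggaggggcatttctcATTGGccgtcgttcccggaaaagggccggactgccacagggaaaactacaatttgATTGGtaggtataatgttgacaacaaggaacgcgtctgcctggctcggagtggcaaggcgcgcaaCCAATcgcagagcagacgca
Eif3b, chr5:140419055-140419304, plus strand: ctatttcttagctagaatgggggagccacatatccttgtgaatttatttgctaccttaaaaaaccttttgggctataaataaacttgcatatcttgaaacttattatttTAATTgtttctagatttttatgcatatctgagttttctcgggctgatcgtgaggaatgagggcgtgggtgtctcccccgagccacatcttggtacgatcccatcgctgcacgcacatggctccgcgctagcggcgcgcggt
Eif3f, chr7:108934165-108934414, plus strand: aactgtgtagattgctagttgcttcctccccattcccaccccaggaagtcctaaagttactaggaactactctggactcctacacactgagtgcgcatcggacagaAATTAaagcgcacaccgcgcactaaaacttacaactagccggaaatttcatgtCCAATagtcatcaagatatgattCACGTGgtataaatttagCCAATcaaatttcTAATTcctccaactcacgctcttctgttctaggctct
Eif4h, chr5:134639410-134639659, minus strand: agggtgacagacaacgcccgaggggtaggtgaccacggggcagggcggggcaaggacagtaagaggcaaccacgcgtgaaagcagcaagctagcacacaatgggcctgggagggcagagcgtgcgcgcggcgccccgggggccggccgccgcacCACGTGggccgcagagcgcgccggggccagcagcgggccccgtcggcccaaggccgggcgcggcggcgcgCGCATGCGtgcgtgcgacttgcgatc
In Eif2b4 the capitals are a TAATT and a reversed CCAAT that overlap by 3 bases, 66 bases before the start, and the summit lay 13 bp before the start. The Eef1a1 stretch held none of the words.

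Among the 9 genes of eIF2, eIF2B and tRNA delivery, 2 had an interval (22.2%). Eif2b4, the delta subunit of eIF2B, had an interval at chr5:31192500-31193511 with a height of 32, which 117 of the 3477 summits exceeded (3.36%). Its summit was also 110 bp from an end of Snx17, a sorting nexin gene. Eif2s1, the eIF2 subunit that the stress kinases phosphorylate, had an interval at chr12:78861247-78862463 with a height of 12, which 81.4% of summits exceeded. That summit lay 40 bp before the Eif2s1 start and 24 bp from an end of Atp6v1d, which encodes a subunit of the vacuolar proton pump. Both summits thus had the end of another coding gene close by, and a summit there cannot be assigned to either gene. Eif2b1, Eif2b2, Eif2b3, Eif2b5, Eif2s2, Eif2a and Eif2d had no interval within 1 kb, with nearest summits between 9.82 kb (Eif2b2) and 215 kb (Eif2s2) away.

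Of the 4 eIF2 kinases, Eif2ak3 alone had an interval. Eif2ak3 encodes PERK, the kinase that responds to unfolded protein in the endoplasmic reticulum. Its interval at chr6:70844347-70845118 had a height of 23, exceeded by 11.4% of summits, and the summit lay inside the gene. That summit was 93 bp past the start used for the sequence above and 124 bp past the outermost annotated start. The nearest summits of the other kinases were 11.9 kb from Eif2ak4, 291 kb from Eif2ak1 and 1013 kb from Eif2ak2.

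The eIF3 complex had the most genes with an interval, 7 of 14 (50%, 95% Wilson interval 26.8 to 73.2%, against 11.3% of all genes). Their heights were 21 at Eif3d, 18 at Eif3a, 15 at Eif3e, 15 at Eif3f, 13 at Eif3b, 13 at Eif3m and 11 at Eif3i. Eif3a encodes the large scaffold subunit and Eif3d a subunit that can bind the mRNA cap. The 7 summits lay from 88 bp (Eif3i) to 376 bp (Eif3d) from the nearest gene end. The intervals were chr15:77970355-77971557 at Eif3d, chr19:60790241-60790797 at Eif3a, chr15:43282109-43282910 at Eif3e and chr7:108933985-108934787 at Eif3f. Those of lower height were chr5:140418359-140419695 at Eif3b, chr2:105016608-105017380 at Eif3m and chr4:129600411-129601156 at Eif3i. At Eif3i the summit was nearer to an end of Tmem234 (67 bp) than to Eif3i, and the Eif3m interval overlapped the noncoding gene Gm38521. Only Eif3d and Eif3a were above the library median of 16. The subunits without an interval were Eif3c, Eif3g, Eif3h, Eif3j1, Eif3j2, Eif3k and Eif3l, with nearest summits from 12.4 kb (Eif3l) to 964 kb (Eif3j2) away.

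The eIF4 factors had an interval at 5 of 13 genes (38.5%). The helicase genes Eif4a1 and Eif4a2, which unwind the leader of the mRNA, had heights of 22 and 20, and Eif4a3, the helicase of the exon junction complex, had 18. Their intervals were chr11:69671104-69671978, chr16:23107066-23108711 and chr11:119299777-119300623. The Eif4a2 interval was the widest of all 23, at 1646 bp. Eif4g2, an eIF4G relative without a site for the cap-binding factor, had intervals at chr7:111082111-111082801 with a height of 14 and at chr7:111082898-111083610 with a height of 12, less than 1 kb apart at the same gene end. Eif4h, a stimulator of the helicase, had a height of 14 at chr5:134638718-134639605. The cap-binding genes Eif4e, Eif4e1b, Eif4e2 and Eif4e3 had no interval, nor had the scaffolds Eif4g1 and Eif4g3, the helicase cofactor Eif4b or the Eif4a3 copy Eif4a3l1. The nearest summits of these 8 genes were from 7.92 kb (Eif4b) to 382 kb (Eif4e) away. The helicases Eif4a1 and Eif4a2 are close in sequence, and how reads that match more than 1 place were treated is not given in the sources used here.

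None of the 7 genes of start selection and subunit joining had an interval, which allows a share of up to 35.4% (Wilson). That range holds the 11.3% of all genes, so the count does not set this group apart from them. As grouped here, the genes were Eif1, Eif1a, Eif1ad, Eif1b, Eif5, Eif5b and Eif6, with nearest summits from 28.5 kb (Eif5) to 438 kb (Eif1b) away. The grouping does not state that Eif1ad and Eif6 act in these steps. The translational repressors Eif4ebp1, Eif4ebp2 and Eif4ebp3, the eIF4E transporter gene Eif4enif1, and the eIF5A genes Eif5a and Eif5a2 had none either. For all of these genes, binding was not detectable at the calling threshold. Over the 46 members without an interval the nearest summit was at a median of 81.2 kb, against 157 kb over all coding genes without one.

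Elongation factors and their modifying enzymes had an interval at 7 of 15 genes (46.7%, 95% Wilson interval 24.8 to 69.9%), and initiation factors with their regulators at 15 of 53 (28.3%, upper bound 41.6%). These Wilson intervals overlap, and the difference was not tested. The share over all genes was 11.3%. Eef1a1, the abundant factor that carries aminoacyl-tRNA, had a height of 32 at chr9:78480632-78482256, an interval of 1625 bp with its summit 180 bp before the start. The subunits of its exchange factor were called as well, with heights of 18 at Eef1d (chr15:75908679-75909896), 13 at Eef1g (chr19:8966917-8967553) and 12 at Eef1b2 (chr1:63176838-63177399). Eef1a1 thus had the tallest summit of the eEF1 genes, with no replicate to give the error of that difference. Eef1d shared its summit with Tigd5, whose end was 279 bp away and nearer than the 328 bp of Eef1d. Eef1b2 shared its summit with Ndufs1, a gene of respiratory complex I, at 202 bp. Eef1a2, the form of muscle and nerve, and Eef1e1, a component of the multisynthetase complex, had no interval.

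Eef2, which encodes the translocation factor, had the only interval away from the annotated start among the 16 intervals at members of known strand. The interval at chr10:81181873-81183241 had a height of 18, and its summit lay 5577 bp past the Eef2 start, 301 bp inside the opposite end. An end of Dapk3, a protein kinase gene, was 779 bp from that summit. No summit was called within 1 kb of the annotated Eef2 start. Among the kinase and methyltransferase genes of elongation, Eef1akmt3 had a height of 19 at chr10:127041138-127042384 and Eef1akmt2 a height of 18 at chr7:132852245-132852911. The Eef1akmt3 summit lay 2 bp outside the gene and 467 bp from an end of Mettl1, which encodes a tRNA methyltransferase. Eef2k, Eef2kmt, Eef1akmt1, Eef1akmt4, its readthrough transcript Eef1akmt4-ece2 and Eef1aknmt had none.

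**Figure D2:**
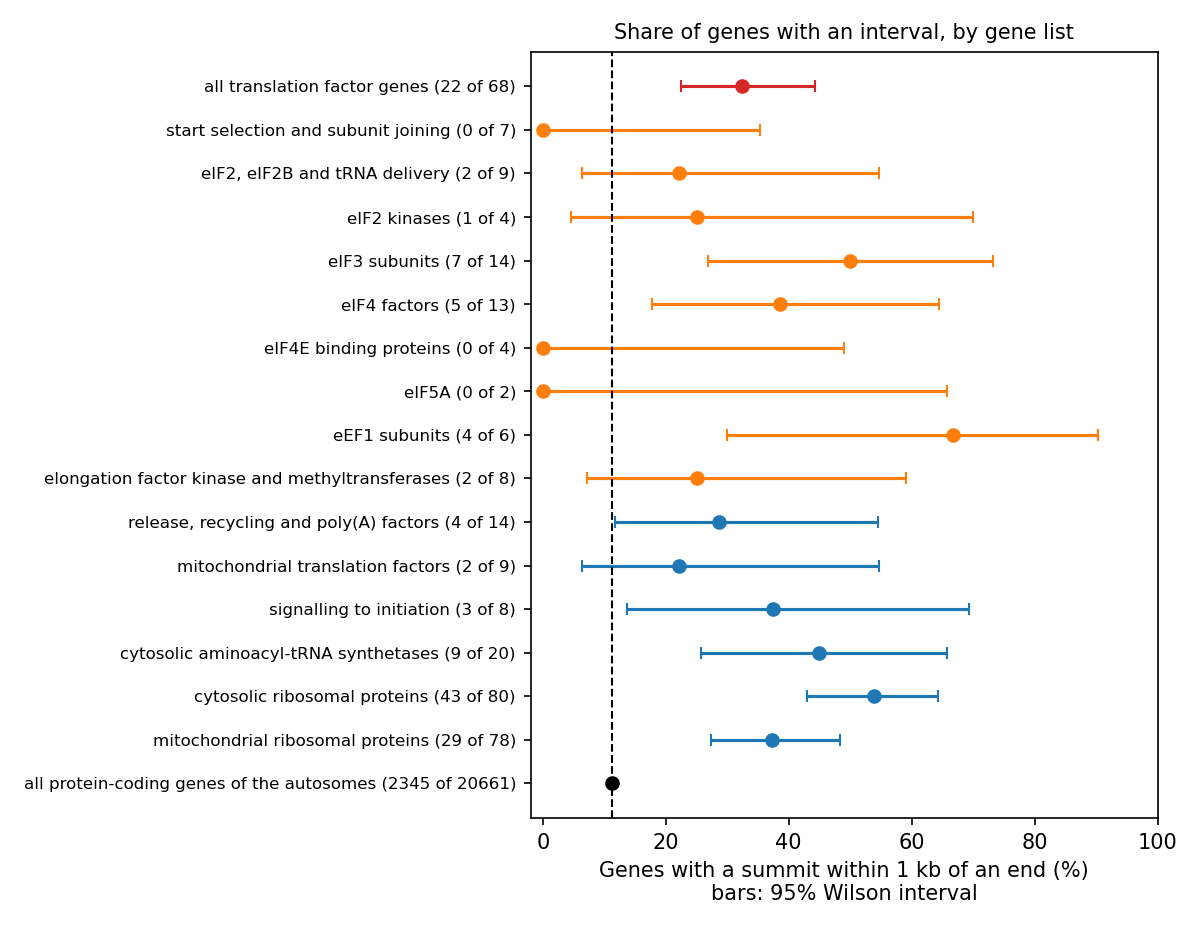
Percentage of genes with a Myc-Tag summit within 1 kb of an end (horizontal axis) for all translation factor genes (red), their roles (orange, eEF2 left out as a single gene), other translation genes (blue) and all autosomal protein-coding genes (black). Points are shares, bars 95% Wilson intervals and the dashed line the 11.3% of all genes, which, among the roles, the bars of eIF3, eIF4 and eEF1 do not reach.

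Position along the gene could be read for the 52 genes (76.5%) whose strand the RefSeq promoter table gives, and 16 intervals fell at such genes. Of these, 15 (93.8%, 95% Wilson interval 71.7 to 98.9%) lay at the annotated start and only that of Eef2 at the other end. The same share over all autosomal coding genes was 92.4%. Measured from the outermost annotated start, these summits ranged from 376 bp before it (Eif3d) to 999 bp into the gene (Eif4a1). Their median was 13 bp before the start, compared with 67 bp into the gene over all 1854 such summits. Counting all 23 intervals, 14 summits were within 200 bp of a gene end and 20 within 400 bp. The 3 farther ones were Eif4a1 at 999 bp, Eef1akmt2 at 723 bp and the taller Eif4g2 summit at 630 bp. The Eef1akmt2 summit was 71 bp past the start of its promoter table entry, which lies inside the gene end used here. Summits were deposited on a grid, with 3329 of 3477 at a multiple of 16 bp, so these distances are not exact to the base. Eif4a1 lay just inside the limit of 1 kb, and the nearest genes outside it were Eef1akmt4 at 2763 bp and Eif4ebp3 at 3916 bp.

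**Figure D3:**
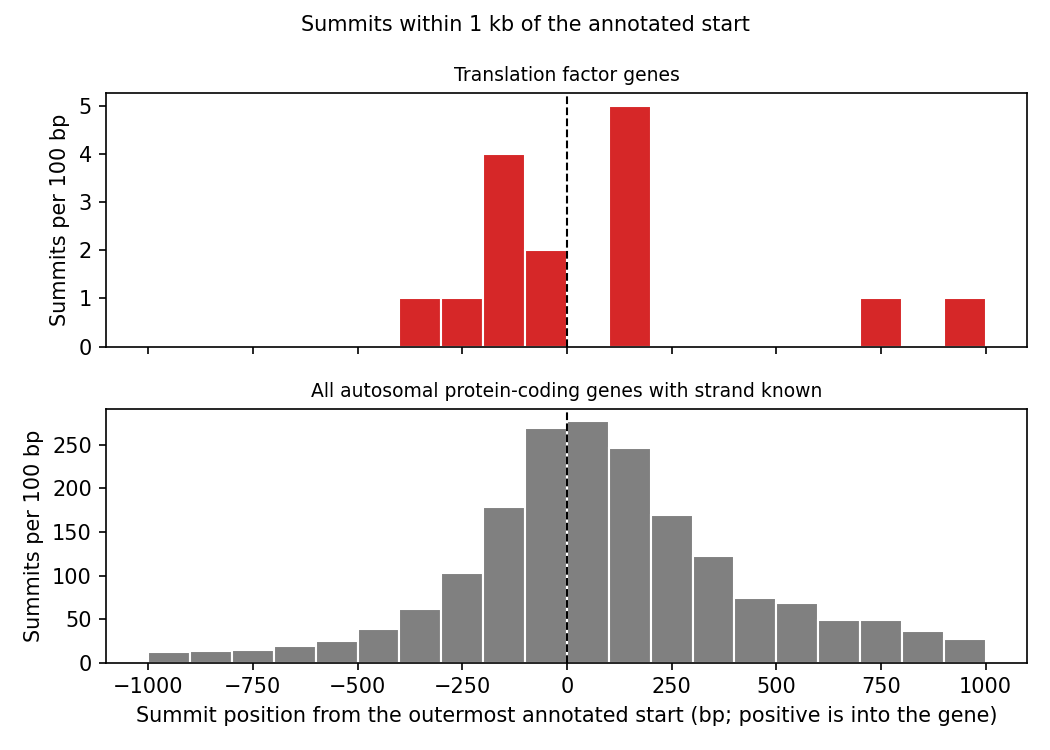
Number of summits per 100 bp (vertical axes) by distance from the outermost annotated start (horizontal axis, bp, positive into the gene) for translation factor genes (above, 15 summits) and all autosomal coding genes of known strand (below, 1854 summits). Both sets gather around the start, and the members' summits lie between 376 bp before it and 999 bp past it.

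Another coding gene end lay within 1 kb of 7 of the 23 summits (30.4%), against 33.4% of the gene and summit pairs over all autosomal coding genes. When a summit was counted only for the gene whose end was nearest, Eif3i, Eif2s1 and Eef1d dropped out and 19 of 68 genes were left (27.9%, against 9.58% of all genes). Interval widths were 557 to 1646 bp with a median of 847 bp, compared with 813 bp for all summits near coding gene ends. The members with an interval had a median gene length of 11.8 kb and those without one 18.5 kb, whereas over all coding genes the lengths were 21.0 kb with and 17.1 kb without.

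Chromosome 15 held 6 of the members, Eif3d, Eif3e, Eef1d, Eif3h, Eif3l and Eif4b, and the first 3 of these had an interval. On this chromosome 21.3% of all coding genes had one, against 11.0% on the other autosomes, and the median height near gene ends was 18 against 15. The part of this in the members' count was not tested, but without chromosome 15 an interval was found at 19 of 62 genes (30.6%, against 11.0%).

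The promoter windows, 250 bases before to 50 after each annotated start, covered 52 members with 67 windows and 16456 autosomal coding genes with 20084 windows. Of the 16 windows of members with an interval, 14 overlapped the interval and 7 held the summit. TAATT was found in 8 of 67 member windows (11.9%, 95% Wilson interval 6.18 to 21.8%), against 23.3% of all windows. By gene, it was found in 3 of 16 members with an interval and 5 of 36 without (18.8% and 13.9%), and in 17.8% and 27.4% of all genes with and without one. Eef1akmt4 and its readthrough, both without an interval, have the same window, so its TAATT was counted for each of them. The word is poor in G and C, and the members' windows were rich in CpG dinucleotides, with a median of 23 against 14 over all windows. Among all windows with at least 18 CpG, the lower quartile of the members, TAATT was in 9.32%, and among the 54 member windows of that kind in 11.1%.

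The E-box CACGTG, a word bound by Myc with Max and by related factors, was found in 17 of 67 member windows (25.4%, 16.5 to 36.9%), against 7.89% of all windows and 11.7% of CpG-rich ones. Within the 54 CpG-rich member windows the share was 29.6%. By gene the E-box was found in 15 of 52 members (28.8%, against 9.01%), with a share of 31.2% at members with an interval and 27.8% at those without. Among the former, the windows of Eef2 and Eif4a1 did not overlap the interval of the gene. Members with and without an interval thus both held it at a higher share than all genes (12.5% with an interval, 8.56% without). For the 5 of 16 members with an interval, the Wilson interval was 14.2 to 55.6%. The Ets word CCGGAAG was in 28.4% of member windows and 31.5% of the CpG-rich ones among them, compared with 11.9% of all and 20.1% of all CpG-rich windows. By gene it was in 4 of 16 members with an interval and 12 of 36 without (25% and 33.3%). Over all genes with and without an interval the shares were 26.4% and 11.6%. CCAAT was in 29.9% of member windows and 38.1% of all, AAGATGGCG in 2.99% and 1.83%, and CGCATGCG in 4.48% and 2.54%. A start at C followed by at least 4 pyrimidines, as in mRNAs with a terminal oligopyrimidine tract, was found in 1 member window (1.49%), that of Eif3f, against 2.23% of all. Only the exact annotated start base was read, so a tract beginning a few bases away was missed. Members without a window, such as Eef1d and Eef1g, were not read. The count therefore does not show which members make such mRNAs. Windows of 1 gene can overlap, Eif5a alone having 6, so the windows are not independent. The window that Eef1akmt4 has in common with its readthrough holds an E-box and a CCAAT, which were counted for both, by window and by gene. A match is a description of the letters and not a binding site.

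**Figure D4:**
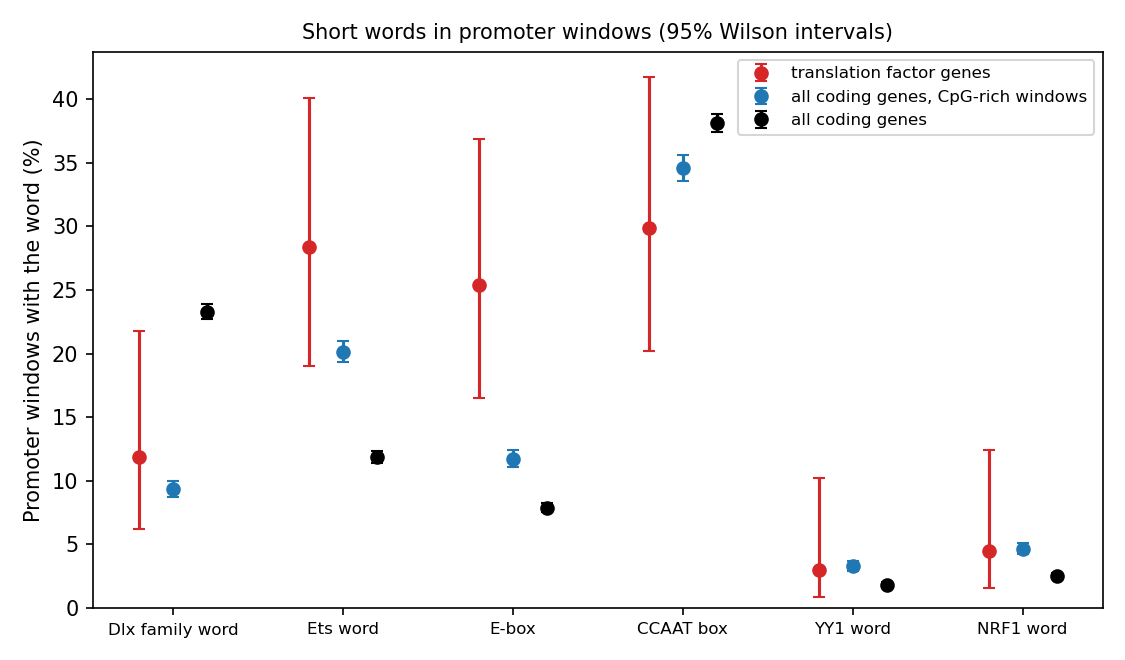
Percentage of promoter windows that hold each short word on either strand (vertical axis) for translation factor genes (red, 67 windows), all autosomal coding genes with at least 18 CpG per window (blue) and all autosomal coding genes (black), with 95% Wilson intervals as bars. The members' bar lies above both other sets for the E-box, and for the Dlx family word it lies below all genes and overlaps the CpG-rich ones. The members' windows were not limited by CpG.

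CpG content also went with the calls themselves. Windows of genes with an interval had a median of 24 CpG over all coding genes, and those without 11. Among the 6997 coding genes with a window of at least the lower quartile of the members by gene (18.8 CpG), 1381 (19.7%) had an interval, against 11 of 39 members (28.2%) in the same class. Below that limit, 510 of 9459 coding genes (5.39%) and 5 of 13 members (38.5%) had one. Each class held few members, and the differences from all coding genes within a class were not tested.

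Other genes of the translation machinery were counted by the same rule, which found 11.3% of all genes. Among 14 release, recycling and poly(A) factors, 4 had an interval (28.6%, 95% Wilson interval 11.7 to 54.6%). Heights were 25 at Pabpc1, 22 at Denr, 14 at Eefsec and 12 at Pabpc4. Among the 9 mitochondrial translation factors, Tsfm (23) and Mrrf (15) were called (22.2%, 6.32 to 54.7%), a range that holds the 11.3%. Of 8 genes that signal to initiation, 3 were called (37.5%, 13.7 to 69.4%). Heights were 23 at the growth kinase gene Mtor, 20 at its partner Rptor and 16 at the S6 kinase gene Rps6kb1. Cytosolic aminoacyl-tRNA synthetases, which charge tRNA, had an interval at 9 of 20 genes (45%), with heights from 13 to 27. Cytosolic ribosomal protein genes reached 43 of 80 (53.8%, 95% Wilson interval 42.9 to 64.3%) and mitochondrial ribosomal protein genes 29 of 78 (37.2%, 27.3 to 48.3%). The interval of the translation factor genes, 22.4 to 44.2%, overlapped those of both ribosomal groups, with the cytosolic group only between 42.9 and 44.2%. These differences were not tested, and an overlap does not show that the shares are alike. The labelled cell type could not be checked, since peaks do not measure expression. Of 10 T-cell marker genes, 4 had an interval (40%, against 11.3% of all genes), with heights of 15 at Cd3d, 14 at Cd8b1, 11 at Rag2 and 10 at Cd3g, all below the library median of 16. Cd4, Cd8a, Cd3e, Lck, Thy1 and Rag1 had none.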

How the data were processed

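ChIP-seq was performed and its peaks called for the authors by Active Motif, with sequencing on an Illumina GA II and peak calling by MACS. The submitters' processing notes name BWA and the build mm9. The deposited table nevertheless holds an interval ending at 90813302 of chromosome Y, past the end of that chromosome in mm9, and on each autosome 47% to 70.7% of summits lay within 1 kb of a coding gene end of GRCm38.p6. The coordinates were therefore read as mm10 (GRCm38). The MACS version and the threshold used for calling are not given in the sources used here. The deposited height of each summit is a score in whole numbers, made by the authors with no stated normalization. Of its 5 tracks, 4 give summits and intervals per library, and the last names 3477 active regions, which were not used.

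Summits were matched to intervals by position, interval starts were counted from 1, and an interval counted as called in the input when an input interval overlapped it by at least 1 bp. Genes, strands and promoter windows came from RefSeq tables of GRCm38.p6. A gene was counted when a summit lay within 1 kb of either end. All genes that met the symbol rule are named, by role. The members and lists were chosen with earlier results of these data known. Shares have 95% Wilson intervals. Tables were computed with pandas 2.3.3 and numpy 2.4.6 under Python 3.11.15, intervals with scipy 1.17.1 and figures with matplotlib 3.10.9, and the counting was tested on simulated data. Alternatives were other distances, height thresholds, chromosomes, gene ends and member sets.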

Additional observations from a re-analysis of the deposited data

How the results depend on the processing

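Of 21 comparisons with an alternative, 19 stayed inside the 95% interval of the value reported and 2 moved beyond it. Both came from a stricter height threshold, under which fewer intervals follow by construction. Leaving out the intervals called in the input could move neither the share nor the median height, as no member's interval was among them. The 19 include both of these comparisons. With heights of at least 16, the median of the library, 17.6% of the translation factor genes were called at 1 kb (6.01% of all genes). With heights of at least 19, the 75th percentile, the share was 10.3% (3.26% of all genes). At distances of 500 bp, 5 kb and 10 kb it was 29.4%, 35.3% and 38.2%, against 9.54%, 15.6% and 18.6% of all genes. With annotated starts only it was 28.8% (11.0% of all genes), and without kinases, methyltransferases and binding proteins 36.5% (11.3% of all genes). Counting Eef1akmt4 with its readthrough as 1 gene, and counting a summit only for its nearest gene, were chosen after seeing the data. The median height ranged from 15 to 18 over its alternatives. No paired analysis was possible because neither the ChIP nor the input was replicated, and no replicate could be left out. The unknown depth limits all statements on genes without an interval.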

Other observations

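Beyond 1 kb of their ends, translation factor genes had further Myc-Tag intervals in their bodies or at distances from 1958 bp (Eef1akmt3) to 10258 bp (Eif4g3) outside them. Eif4g2 had an interval inside the gene, chr7:111069442-111070009 with a height of 11 and its summit 1743 bp from the gene end opposite its other intervals. The interval 7917 bp from Eif4b, chr15:102065576-102066305 with a height of 24, had Eif4b itself as its nearest coding gene. Near Eef1akmt3, an interval with a height of 23 lay 34 bp from an end of Tsfm, a mitochondrial elongation factor gene. The intervals near Eef1akmt2, Eef1akmt4, Eif2b2, Eif4g3 and Eif4ebp3 had as their nearest coding genes Abraxas2, Camk2n2, Mlh3, Hp1bp3 and Sra1. None of these intervals was called in the input.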
